A study of Vitis vinifera with 2 samples.

Results

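Genic TEs under 200 bp are the shortest transposable element (TE) fragments annotated within or across genes of grapevine. They were taken as every TE that overlapped a gene annotation and whose end minus start was under 200 bp, and methylation was not used to choose them. There were 15008 such TEs among 43403 genic TEs (34.6%) and among 184251 TEs listed in all. The samples were embryogenic callus (EC), a proliferating culture from which somatic embryos can be raised, and young leaf, both of Vitis vinifera cv. Chardonnay. Each tissue was represented by 1 library of whole-genome bisulphite sequencing, so no difference between EC and leaf has a replicate check, and no test between tissues was possible. Reads had been mapped to the PN40024 reference genome, which is another genotype than Chardonnay. The level of a TE is the percentage of cytosines read as methylated, averaged by the authors over the TE in each of the CG, CHG and CHH contexts (H being A, C or T).

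Plants silence TEs largely through DNA methylation. The methyltransferase MET1 copies CG methylation at each replication, CMT3 maintains CHG methylation together with a histone mark, and CHH methylation is laid down anew by CMT2 in heterochromatin and by the RNA-directed pathway that small RNAs guide. The bodies of transcribed genes often carry CG methylation alone, whereas silenced TEs usually carry methylation in CG and CHG together, so a TE fragment inside a gene can take on either pattern.

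Short genic TEs were unevenly represented in the contexts. All but a few had a CHH value, with 14950 of 15008 (99.6%) listed. By contrast 4309 (28.7%) were listed for CG and 5620 (37.4%) for CHG, against 69.4% and 77.1% of the 28395 longer genic TEs. A total of 2751 (18.3%) had a value in all 3 contexts, against 18150 longer genic TEs (63.9%), and 7850 (52.3%) were listed for CHH alone, against 4967 longer genic TEs (17.5%). The authors listed a TE only where its effective coverage was greater than 20 in both libraries, and the number of cytosines per TE is not analysed here. The members were 11 to 199 bp long, with a median of 118 bp over all of them, 135 bp over those listed for CG and 129 bp over those listed for CHG. They lay on the plus strand in 7464 cases and on the minus strand in 7544. A total of 435 (2.90%) lay on sequences with no known position on a chromosome. A total of 2083 (13.9%) overlapped another listed TE, and 0 lay inside another. The read depth behind each value is unknown, and a TE of 20 bp weighed as much in a mean as a TE of 199 bp.

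CG methylation of short genic TEs was high in both tissues. The mean level was 80.9% in EC and 81.0% in leaf, with medians of 91.6% in EC and 90.5% in leaf. The mean difference, EC minus leaf, was -0.121 percentage points (SD 15.9 over 4309 TEs), while the median difference was 0.760. The mean was positive on 9 chromosomes and negative on 10, between -2.53 on chromosome 17 and 2.75 on chromosome 4. Levels were higher in EC at 2304 TEs (53.5%, Wilson 95% interval 52.0 to 55.0%, with TEs as the units) and lower at 1870 (43.4%). Over all TEs of the series, 63.1% had a higher CG level in EC. A difference of at least 10 points upwards was seen at 617 short genic TEs and downwards at another 617, 14.3% each, against 18.1% upwards and 9.1% downwards over all TEs. CG levels at the ends of the scale were common in these short intervals. In EC 7.52% of members stood at exactly 100%, against 3.88% in leaf, and 3.34% stood at 0 in EC, against 4.11% in leaf. Of 3754 members with at least 60% CG methylation in leaf, 3538 (94.2%) were also at 60% or more in EC. The share was similar in other TEs, at 97.3% of such longer genic TEs and 95.7% of such short intergenic TEs.

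Relative to longer genic TEs, the CG level of short genic TEs was lower in both tissues, by 4.39 points in EC and 3.56 points in leaf, and lower on 19 of 19 chromosomes in each. Longer genic TEs had 85.3% in EC and 84.6% in leaf, with a mean difference of 0.708 points and a narrower spread (SD 11.4). The change of short genic TEs minus that of longer ones was -0.829 points and was negative on 16 of 19 chromosomes. Intergenic TEs under 200 bp, which overlap no gene, had 83.4% in EC and 80.3% in leaf, and their mean difference of 3.08 points exceeded that of short genic TEs on 19 of 19 chromosomes. The contrast was -3.20 points by means and -1.35 points by medians.

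CHG methylation of short genic TEs was lower in EC than in leaf. The mean level was 23.3% in EC and 32.1% in leaf, with medians of 7.06% in EC and 17.8% in leaf. The mean difference was -8.76 points (SD 23.2 over 5620 TEs, quartiles -18.5 and 1.76). It was negative on 19 of 19 chromosomes, between -11.7 on chromosome 7 and -3.16 on chromosome 3. The median difference was -0.085 points, and 1076 members (19.1%) were listed at 0 in both tissues. A lower level in EC was found at 2824 members (50.2%) and a higher level at 1706 (30.4%, interval 29.2 to 31.6%), against 65.5% higher over all TEs of the series. Differences of at least 10 points ran downwards at 1842 members (32.8%) and upwards at 637 (11.3%), against 19.5% downwards and 42.2% upwards over all TEs. In longer genic TEs they ran downwards at 42.7% and upwards at 14.6%.

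The distribution of CHG levels had a large mass near 0 and a broad plateau above it. Under 20% CHG methylation were 62.9% of members in EC (interval 61.6 to 64.1%) and 51.4% in leaf (50.1 to 52.7%). These intervals take the same TEs as units in both tissues and are no test between tissues. At 60% or more stood 16.7% of members in EC and 27.4% in leaf. Of the 1540 members with at least 60% in leaf, 710 (46.1%) were still at 60% or more in EC, 567 (36.8%) were between 20 and 60%, and 263 (17.1%) were under 20%. Of the 11103 longer genic TEs with at least 60% in leaf, 54.5% were at 60% or more in EC and 7.67% were under 20%. Both sets were selected by their leaf level, which can move the difference downwards, and how much it did so in each was not tested. Movement in the other direction was rare in genic TEs of either length. Of the 2887 short genic TEs under 20% in leaf, 20 (0.693%) reached 60% in EC, against 57 of 5600 longer genic TEs (1.02%). In short intergenic TEs 261 of 2042 (12.8%) did so. The plot of level distributions shows the CHG levels of short genic TEs beside their CG levels.

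**Figure D1:**
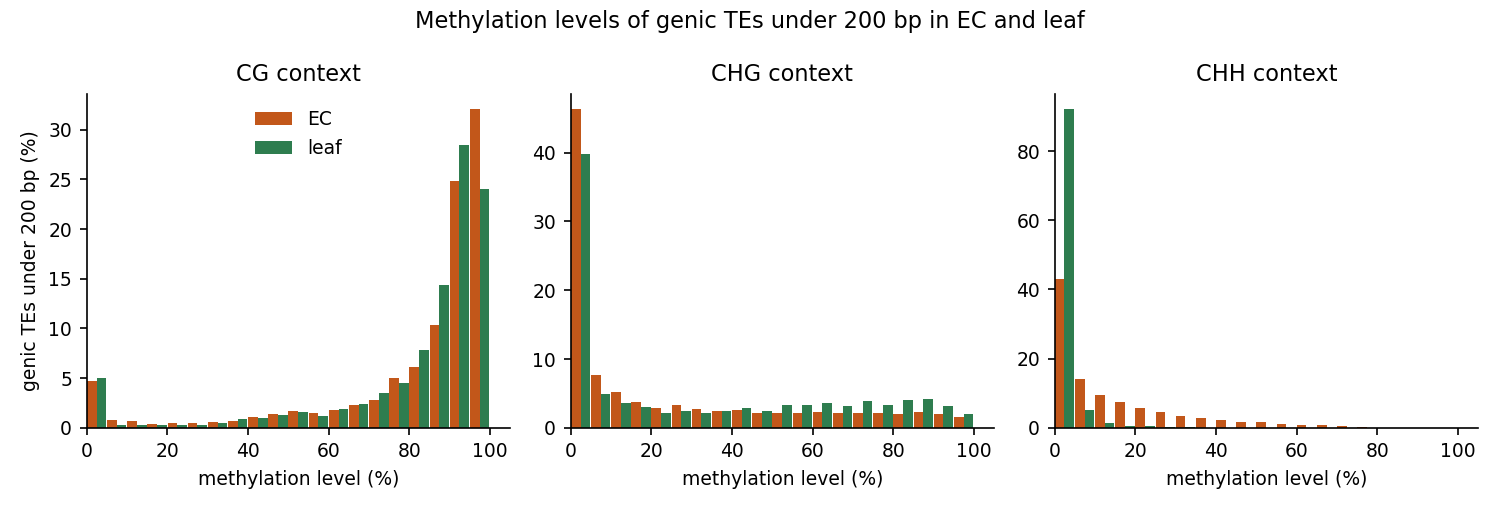
Share of genic TEs under 200 bp (y axis, %) in each 5-point class of methylation level (x axis, %) in EC (orange, left bar of each pair) and leaf (green), for 4309 TEs in CG, 5620 in CHG and 14950 in CHH. CG levels pile up near 100% in both tissues, CHG levels of 60% or more are held by 16.7% of TEs in EC and 27.4% in leaf, and CHH levels spread upwards in EC, with a median of 7.11% in EC and 0.290% in leaf.

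Short genic TEs carried much less CHG methylation than longer genic TEs, which had 40.0% in EC and 50.2% in leaf. The gap was -16.7 points in EC and -18.1 points in leaf, and short genic TEs were lower on 19 of 19 chromosomes in both. The difference between EC and leaf was smaller in short than in longer genic TEs, at -8.76 against -10.2 points, and their contrast of 1.46 points was positive on 15 of 19 chromosomes. By medians the differences were -0.085 and -5.30 points, a contrast of 5.22 points. Weighted to the leaf levels of the short genic TEs, in 10 level classes, the contrast turned to -2.74 points. Against intergenic TEs of the same length the contrast was wider. Intergenic TEs under 200 bp had 63.5% in EC and 56.7% in leaf, a difference of 6.73 points in the opposite direction, and the contrast of -15.5 points was negative on 19 of 19 chromosomes. It was -6.86 points by medians, -20.1 points weighted to the leaf levels of the short genic TEs, and -5.44 points for the members within 2 kb of an intergenic TE.

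CHH methylation of short genic TEs was higher in EC at most members. The mean level was 13.9% in EC and 1.56% in leaf, with medians of 7.11% in EC and 0.290% in leaf. The leaf median lay below the share of cytosines left unconverted by the bisulphite conversion rate that the paper gives for leaf. No correction for this was made here. The median difference was 6.10 points. The mean difference was 12.3 points (SD 15.2 over 14950 TEs, quartiles 1.15 and 18.5) and was positive on 19 of 19 chromosomes, between 9.90 on chromosome 8 and 17.2 on chromosome 15. The CHH level was higher in EC at 12731 members (85.2%, interval 84.6 to 85.7%), lower at 588 (3.93%) and equal at 1631 (10.9%), of which 1616 were at 0 in both tissues. Over all TEs of the series 97.1% were higher in EC. A difference of at least 10 points upwards was found at 5954 members (39.8%), against 81% over all TEs, and downwards at 9 members (0.0602%), against 0.0375% over all TEs.

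The CHH level in leaf was listed at 0 for 44.5% of members, and in EC for 12.7%. Longer genic TEs were at 0 in 1.54% of cases in EC and 11.6% in leaf. They had 19.5% CHH methylation in EC and 2.20% in leaf, so the difference of 17.3 points exceeded that of short genic TEs by 4.92 points, with the same sign on 19 of 19 chromosomes. Short intergenic TEs reached 33.1% in EC and 3.08% in leaf, and the EC level of short genic TEs was lower than theirs by 19.2 points. The 7850 members listed for CHH alone had 14.5% in EC and 1.36% in leaf, and 15.0% of them were at 0 in EC and 53.3% in leaf. The 2751 members listed in all 3 contexts had 15.1% in EC and 2.19% in leaf, and 6.80% of them were at 0 in EC and 25.9% in leaf.

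The contexts were then compared within the same TEs, over the 2751 short genic TEs with all 3 values. The member nearest the medians of all 6 values lay on the minus strand at chr6:17289383-17289520 of the 12X PN40024 assembly and was 137 bp long. It had 92.0% CG methylation in EC and 87.7% in leaf, 12.3% CHG methylation in EC and 36.4% in leaf, and 6.11% CHH methylation in EC and 0.380% in leaf. The next nearest, chr16:20776837-20776992 (minus strand, 155 bp), had 88.0% CG methylation in EC and 93.1% in leaf, 15.5% CHG methylation in EC and 34.6% in leaf, and 5.03% CHH methylation in EC and 0 in leaf. Both thus combined a CG level that differed little between tissues with less CHG and more CHH methylation in EC.

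Methylation in CG without CHG was the more frequent pattern in EC. Members with at least 60% CG and under 20% CHG methylation numbered 1138 (41.4%) in EC and 844 (30.7%) in leaf. Members with at least 60% in both contexts numbered 561 (20.4%) in EC and 857 (31.2%) in leaf. In longer genic TEs the CG-only pattern made up 28.1% in EC and 17.9% in leaf, and in short intergenic TEs 5.68% in EC and 6.75% in leaf. A CHG level at least 10 points lower in EC was seen at 1030 of the 2751 members (37.4%). CG methylation differed by under 10 points at 808 of these (78.4%), against 73.7% of the 2751. CHH methylation was at least 10 points higher in EC at 443 of the 1030 (43.0%), close to the 44.2% of the 2751. The same held for 31.0% of the 1318 members whose CHG level differed by under 10 points. In longer genic TEs the shares were 54.8% with such a lower CHG level, 59.0% with CHG within 10 points and 62.8% of all. Of the 403 members with at least 10 points more CHG methylation in EC, 364 (90.3%) also had at least 10 points more CHH methylation. The share was 96.9% of such longer genic TEs and 97.5% of such short intergenic TEs. Whatever their CHG difference, 44.2% of short genic, 62.8% of longer genic and 89.2% of short intergenic TEs had that much more CHH methylation.

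CHH methylation in EC was higher where the same TE had more CHG methylation in leaf. The 1125 members under 20% CHG methylation in leaf had a mean CHH level of 5.90% in EC and 0.660% in leaf. The 740 members from 20 to under 60% CHG methylation had 19.7% CHH methylation in EC and 2.71% in leaf. The 886 members at 60% or more had 22.9% in EC and 3.70% in leaf. Median CHH levels in EC over the same classes were 2.17, 14.8 and 19.98%, and the quartile ranges of the lowest and the highest class did not overlap. The same order was seen in longer genic TEs, with medians of 4.0, 14.2 and 23.5%. Short intergenic TEs also had it, with 16.3, 32.1 and 35.5%. As a description over these 2751 TEs, which share their 2 libraries, Pearson's r was 0.46 between CHG in leaf and CHH in EC, 0.36 between the CHG and CHH differences, and 0.12 between the CG and CHG differences.

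**Figure D2:**
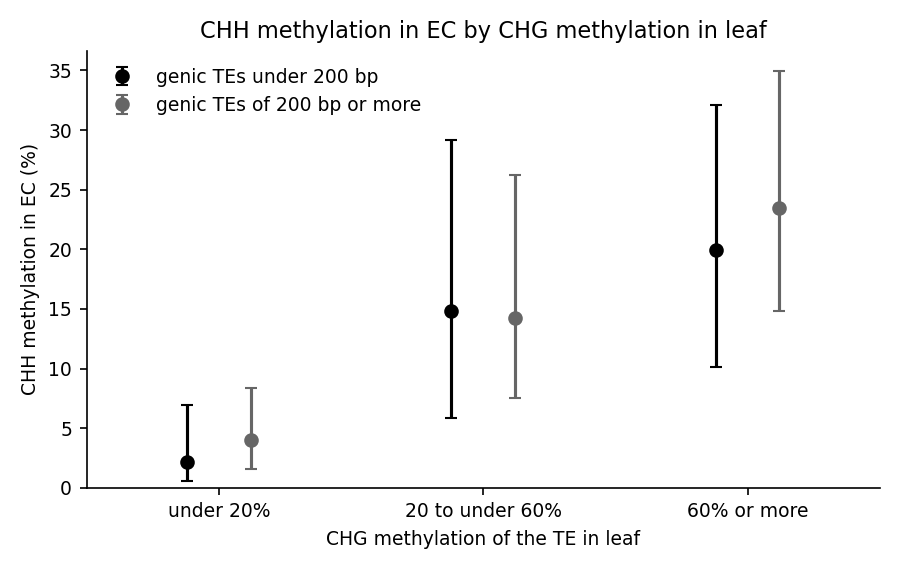
Median CHH methylation in EC (points, %, bars from the lower to the upper quartile over TEs) by the CHG level of the same TE in leaf (x axis), for genic TEs under 200 bp (black) and of 200 bp or more (grey) listed in all 3 contexts. The medians of genic TEs under 200 bp stood at 2.17, 14.8 and 19.98% from the lowest to the highest CHG class. Those of longer genic TEs stood at 4.0, 14.2 and 23.5%.

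Levels were not uniform below 200 bp. CHG methylation of genic TEs under 50 bp was 19.8% in EC and 26.7% in leaf, and that of genic TEs from 75 to 99 bp, the lowest class, was 16.4% in EC and 25.5% in leaf. It reached 29.9% in EC and 37.8% in leaf in genic TEs from 175 to 199 bp, and 66.2% in EC and 74.7% in leaf in those of 3 kb or more. The share of members listed at 0 for CHG in EC was 43.2% under 50 bp and 18.8% from 175 to 199 bp. The difference between EC and leaf had the same sign in every length class and lay between -11.0 and -6.94 points below 200 bp. CHH methylation in EC was lowest from 75 to 99 bp, at 11.3%, and reached 17.0% from 175 to 199 bp, while the share of members with more CHH methylation in EC was 71.2% under 50 bp and 92.8% from 175 to 199 bp. CG methylation was 71.3% in EC and 72.0% in leaf under 50 bp, and 82.5% in EC and 81.5% in leaf from 175 to 199 bp. Intergenic TEs shared part of this course at higher levels. Their CHG level in EC was also lowest from 75 to 99 bp, at 60.5% in EC and 55.7% in leaf. Among the classes below 200 bp it was highest in the shortest, with 71.8% in EC and 64.0% in leaf under 50 bp. It was 65.0% in EC and 56.6% in leaf from 175 to 199 bp. Over all lengths their CHG level was highest at 3 kb or more, at 82.0% in EC and 71.7% in leaf. Their CHH level in EC was likewise lowest from 75 to 99 bp, at 31.2%, and the share with more CHH methylation in EC was 95.2% under 50 bp and 97.7% from 175 to 199 bp. The number of cytosines behind a value moves with length, and its part in these gradients was not tested.

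The TEs just inside and just outside the limit of 200 bp are given as a description. Genic TEs from 190 to 199 bp had 30.4% CHG methylation in EC and 37.3% in leaf (n = 329), with medians of 16.3% in EC and 33.3% in leaf. Those from 200 to 209 bp had 32.5% in EC and 41.3% in leaf (n = 333), with medians of 22.9% in EC and 45.5% in leaf. The CHH difference was 16.1 points just inside the limit and 18.0 points just outside it. The CG difference was 1.28 points inside and 0.405 points outside.

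**Figure D3:**
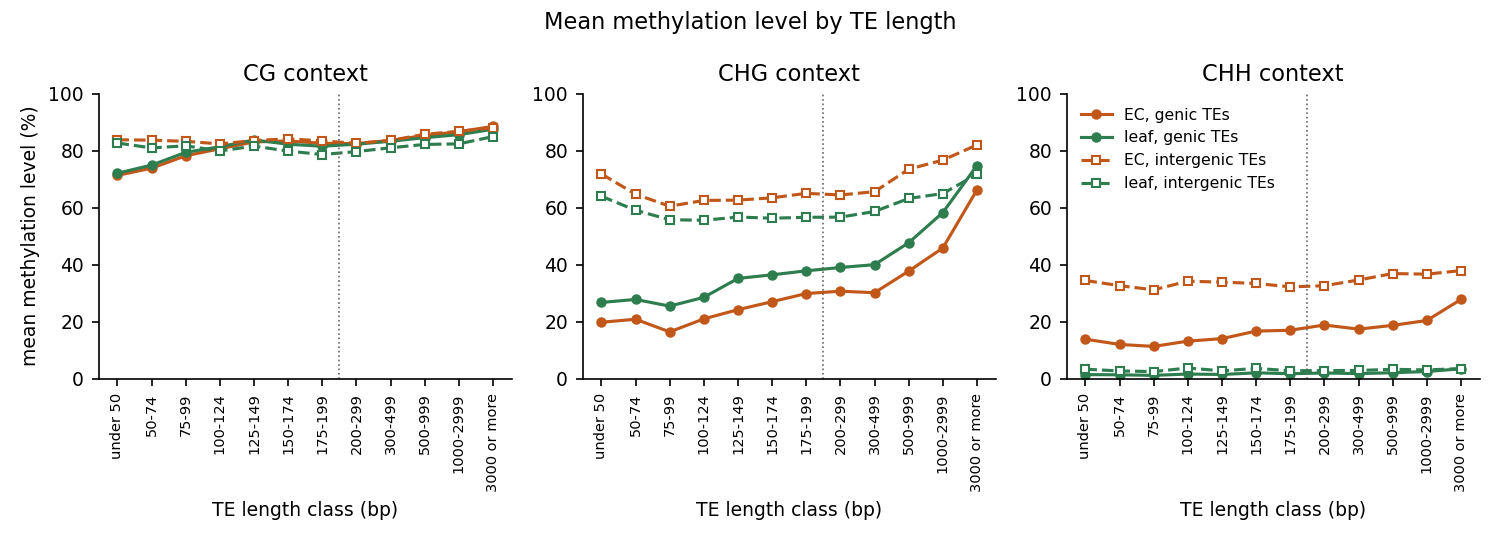
Mean methylation level (y axis, %) by TE length class (x axis, bp) in EC (orange) and leaf (green) for genic TEs (filled circles, solid lines) and intergenic TEs (open squares, dashed lines), with the 200 bp limit dotted. CHG levels of genic TEs climb with length, to 66.2% in EC and 74.7% in leaf at 3 kb or more, while those of intergenic TEs are high in every class.

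The surroundings of short genic TEs were examined through the distance to the nearest listed TE of another kind. The median distance was 639 bp to a genic TE of 200 bp or more (quartiles 88 and 3124 bp) and 6766.5 bp to an intergenic TE (quartiles 3485 and 12391 bp). Gene edges are not analysed here, so closeness to an intergenic TE and closeness to the edge of a gene cannot be told apart. The CHG difference varied in sign along it. The 290 members within 1 kb of an intergenic TE had 36.5% CHG methylation in EC and 33.0% in leaf, a difference of 3.44 points with 55.9% of members higher in EC. At 1 to 2 kb (398 members) the levels were 26.3% in EC and 26.6% in leaf, a difference of -0.263 points. At 2 to 5 kb the difference was -7.41 points, at 5 to 10 kb -9.70 points, and beyond 10 kb, over 1907 members with 22.2% in EC and 34.9% in leaf, -12.6 points with 24.4% of members higher in EC. Members within 2 kb minus members beyond 10 kb gave 13.9 points, positive on 19 of 19 chromosomes (4.64 to 25.9, with at least 22 near members on each), although the contrast of medians was smaller, at 3.41 points. The leaf level on its own was lower near intergenic TEs on 15 of 19 chromosomes, and the EC level was higher near them on 17.

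Members with at least 60% CHG methylation in leaf showed the same order, with a lower mean difference than all members in every distance class. Their difference was 0.900 points within 1 kb (n = 87), -11.0 points at 1 to 2 kb (n = 86), -24.8 points at 2 to 5 kb, -25.8 points at 5 to 10 kb and -31.3 points beyond 10 kb (n = 582). These TEs were selected by their leaf level, which can move the difference downwards, and how much it did so in each distance class was not tested. Longer genic TEs had the same order, with differences of 4.50, -0.0144, -7.62, -11.7 and -14.2 points over the same 5 distance classes. CHH methylation was higher in EC in every class, by 18.3 points within 1 kb and 10.9 points beyond 10 kb. CG methylation was lowest beside intergenic TEs, at 63.2% in EC and 62.1% in leaf within 1 kb, against 85.6% in EC and 85.3% in leaf beyond 10 kb.

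**Figure D4:**
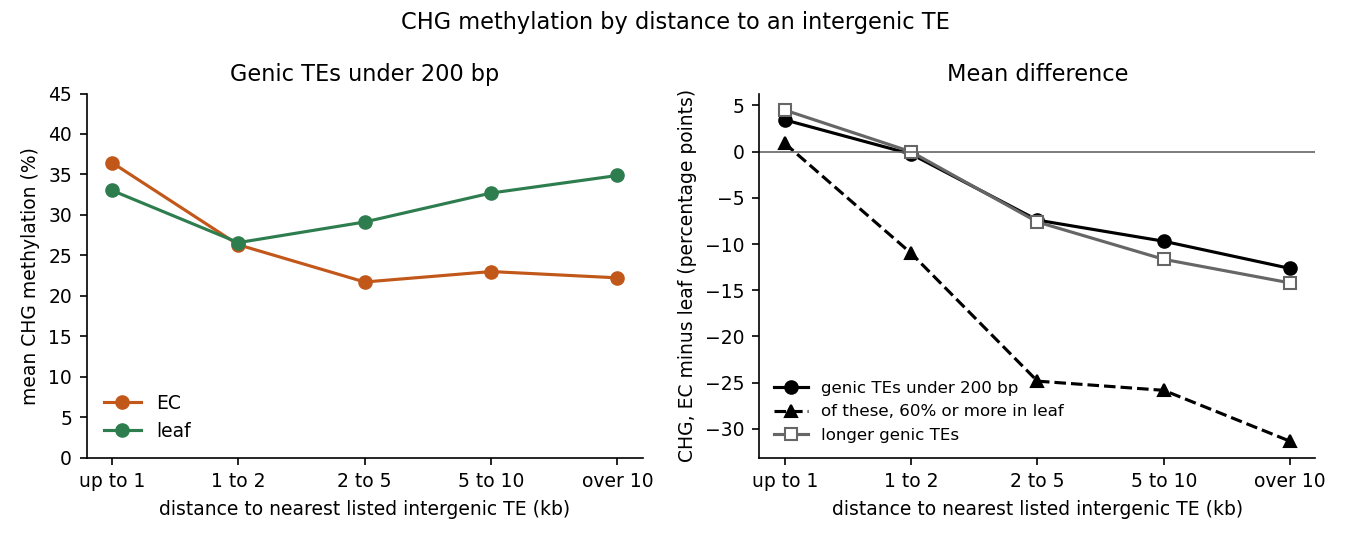
Left, mean CHG methylation (%) of genic TEs under 200 bp in EC (orange) and leaf (green) by distance to the nearest listed intergenic TE (kb). Right, the mean difference EC minus leaf (percentage points) for genic TEs under 200 bp (filled circles), for those with at least 60% in leaf (triangles) and for longer genic TEs (open squares), where genic TEs under 200 bp pass from 3.44 points within 1 kb to -12.6 points beyond 10 kb.

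Proximity to a longer genic TE went with the level itself. Members within 1 kb of a longer genic TE had 30.1% CHG methylation in EC and 41.6% in leaf (n = 3157), while those more than 10 kb from any had 15.1% in EC and 17.8% in leaf (n = 755). The EC and the leaf level were both higher within 1 kb than beyond 5 kb on 19 of 19 chromosomes. The differences between EC and leaf were -11.6 points within 1 kb and -2.79 points beyond 10 kb. The contrast of differences within 1 kb and beyond 5 kb, -7.70 points, was -3.33 points by medians and became 0.414 points once weighted to the leaf levels of the near members. Combined with the distance to intergenic TEs, the most negative mean, -12.8 points, belonged to the 2921 members with a longer genic TE within 1 kb and no intergenic TE within 2 kb, whose level was 28.8% in EC and 41.6% in leaf. The 236 members with both kinds of TE nearby had 45.1% in EC and 41.5% in leaf.

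Short genic TEs and their longer neighbours had similar mean CHG differences. In 2119 pairs of a member and its nearest longer genic TE, lying up to 1 kb apart without touching, the CHG difference was -11.96 points for the short and -12.4 points for the longer TE, although the short TE had the lower level in EC in 63.6% of pairs and in leaf in 57.7%. The difference had the same direction at both TEs in 64.1% of pairs, and r between their CHG differences was 0.48. For CHH, over 6941 pairs, the difference was 13.3 points for the short and 16.5 points for the longer TE, with r of 0.63 between them. For CG, over 1469 pairs, r was 0.28. These correlations are descriptions across TEs of the same 2 libraries, and 1 longer TE could serve several members.

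The largest single differences among members listed in all 3 contexts on chromosomes 1 to 19 fell into several patterns. The most negative CHG differences stood beside high CG methylation in both tissues. The member at chr1:22699359-22699435 (plus strand, 76 bp) had 0 CHG methylation in EC and 96.9% in leaf, beside a CG level of 86.1% in EC and 98.2% in leaf and a CHH level of 0 in EC and 0.510% in leaf. The member at chr8:11884206-11884374 (plus strand, 168 bp) had 6.14% CHG methylation in EC and 100% in leaf with a CG level of 90.9% in EC and 91.3% in leaf, and that at chr14:27868827-27868970 (plus strand, 143 bp) had 0 in EC and 92.5% in leaf with 97.2% CG methylation in EC and 92.8% in leaf. The CHH difference was at most 2.03 points in these 3 TEs.

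The most negative CG differences were at TEs with almost no CHG methylation in either tissue. CG methylation at chr13:5243231-5243339 (plus strand, 108 bp) was 5.88% in EC and 96.3% in leaf, and its CHG level was 0.450% in EC and 0 in leaf. The next, chr8:3997937-3998031 (minus strand, 94 bp), had 5% CG methylation in EC and 91.4% in leaf, with CHG at 4.67% in EC and 1.28% in leaf. The remaining TE, chr8:13736359-13736471 (minus strand, 112 bp), had 9.52% in EC and 93.9% in leaf with CHG at 0 in EC and 1.28% in leaf. All 3 lay more than 5 kb from a longer genic TE.

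The largest positive CHG difference came with positive CG and CHH differences in the same TE. At chr14:29785394-29785551 (minus strand, 157 bp) CHG methylation was 84.6% in EC and 5.41% in leaf, CG methylation 78.2% in EC and 4.22% in leaf, and CHH methylation 39.1% in EC and 1.76% in leaf. The largest CHH difference among the same members, at chr13:21022791-21022934 (minus strand, 143 bp), was a TE already methylated in leaf. It had 81.2% CHH methylation in EC and 3.32% in leaf, with 94.3% CG methylation in EC and 88.8% in leaf and 61.8% CHG methylation in EC and 52.9% in leaf. The most negative CHH difference among members listed in all 3 contexts was -10.7 points, at chr17:2120630-2120807 (minus strand, 177 bp), with 1.77% in EC and 12.5% in leaf, where the CHG level stood at 4.55% in EC and 37.7% in leaf.

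The largest positive CG difference among members listed in all 3 contexts also came with positive CHG and CHH differences. The same TE had the next largest positive CHG difference after the chromosome 14 TE above. The member at chr3:10137353-10137517 (plus strand, 164 bp) had 89.0% CG methylation in EC and 0 in leaf, 75.0% CHG methylation in EC and 2.02% in leaf, and 24.0% CHH methylation in EC and 0 in leaf. The next, at chr2:1670202-1670366 (plus strand), was also exactly 164 bp long and had 81.3% CG methylation in EC and 3.67% in leaf. Both had a further listed TE at a gap of exactly 16 bp. This length and gap were chosen for a closer look after these values had been seen, so what follows is a description. Among the 122 exact lengths with at least 20 members listed for CG, 164 bp had the highest mean CG difference, at 9.79 points (median 5.55) over 46 members. The 7 of these with another listed TE at a gap of 16 bp, on 6 chromosomes, had between 81.3 and 90.7% CG methylation in EC and between 0 and 38.3% in leaf. They included chr13:2916989-2917153 (minus strand), not listed for CHG, with 90.7% in EC and 0 in leaf. The 39 without such a neighbour had a mean of 84.4% in EC and 85.4% in leaf. The 6 members with this length and gap that were listed for CHG had 57.2 to 75.0% in EC and 2.02 to 24.1% in leaf, also without overlap. The 9 listed for CHH had 10.8 to 24.0% in EC and 0 to 12.8% in leaf, and 8 were higher in EC. Their mean CHH difference of 14.0 points was not larger than the 16.9 points of the 92 members of 164 bp without the gap.

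The TEs around these 7 members were also more methylated in EC. Leaving out the members themselves, 9 listed TEs lay at the 16 bp gap, all genic and 146 to 429 bp long, and the 6 of them with a CG value had 77.1 to 91.7% in EC and 1.39 to 43.9% in leaf. On chromosome 3 a pair of members followed each other, chr3:10137353-10137517 and chr3:10137533-10137697, with starts 180 bp apart. The 7 members had a mean CG level of 86.3% in EC and 16.04% in leaf. The 25 intergenic TEs of exactly 164 bp with the same gap and a CG value had a mean of 87.4% in EC and 7.70% in leaf, and were higher in EC in 25 of 25 cases. Of the 107 short genic TEs with at least 30 points more CG methylation in EC, 12 had a listed TE at a gap of 16 bp. So did 2 of the 189 with at least 30 points less, and 29 of all 4309 listed for CG. The 12 include the 7 members above, among them the TEs whose CG values led to the choice of this gap. These counts are therefore not independent of that choice. The TE families and sequences of these intervals are not analysed here. Reads of similar copies can be mapped to each other's positions, and its part in the likeness of these TEs was not tested.

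**Figure D5:**
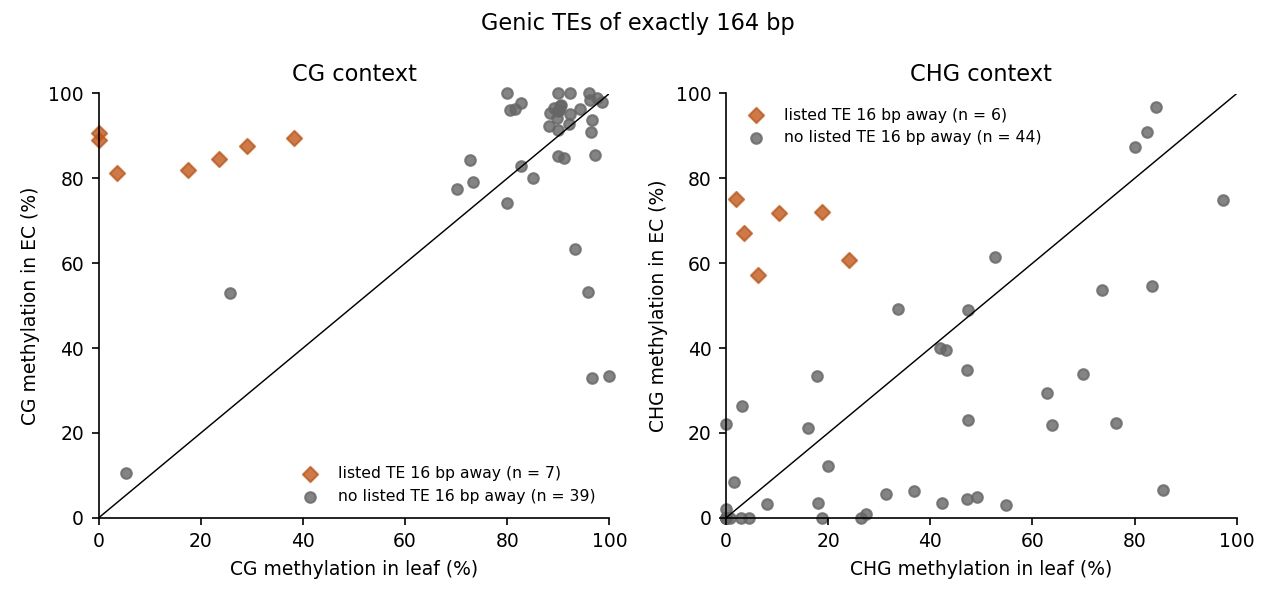
CG (left) and CHG (right) methylation in EC (y axis, %) against leaf (x axis, %) of each genic TE of exactly 164 bp, with a listed TE at a gap of exactly 16 bp (orange diamonds, 7 in CG and 6 in CHG) or without (grey circles, 39 and 44), and the line of equal levels. The diamonds lie at the upper left, with CG levels of 81.3 to 90.7% in EC and 0 to 38.3% in leaf.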

How the data were processed

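Whole-genome bisulphite sequencing was performed on 1 EC and 1 leaf library. As the methods of the study state, read pairs were mapped by the authors to the 12X PN40024 assembly with BS-Seeker2, calls were made and averaged per TE with cgmaptools, TEs were annotated with RepeatMasker, and genic TEs were divided from intergenic ones with BEDtools. The deposited tables hold 1 fraction per TE and library, which was multiplied by 100. TEs were kept by the authors at an effective coverage greater than 20 in both libraries. The tables hold no read numbers, so depth and counting error are unknown. Positions are given as in the tables, whose counting base is not stated. The 2 tables of binned averages were not used.

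The members follow from length and gene overlap alone, but that rule, the lists and the classes were chosen with earlier results of these data known. Each TE had equal weight. Means, medians, SDs, shares with Wilson 95% intervals and means on each of 19 chromosomes were computed in Python 3.11.15 with pandas 2.3.3, after the procedures had been tested on simulated data. Intervals and SDs treat TEs as units and contain no variation between plants, cultures or libraries. Regions were named by rule, as the 3 largest rises and the 3 largest falls per context and the 3 nearest the medians, among members listed in all 3 contexts on chromosomes 1 to 19, and the TEs of 164 bp were added after their values were seen. Sequences and gene parts are not analysed here. Alternatives covered the median, minimum levels, lengths, overlaps, leaf level weighting and minimum differences.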

Additional observations from a re-analysis of the deposited data

How the results depend on the processing

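Of 77 alternatives to 20 results, 43 stayed within the spread between chromosomes, the Wilson interval or 1.5 times the count, 31 moved further and 3 changed sign. Of these alternatives, 17 were chosen with the data in view. The cause was not tested unless a choice sets it by construction. With the median in place of the mean the CG difference was 0.760 points, the CHG difference -0.085 and the CHH difference 6.10, and the contrast with longer genic TEs was 5.22 points in CHG and -7.27 in CHH. The median contrast with short intergenic TEs was -1.35 points in CG, -6.86 in CHG and -23.2 in CHH. Weighted to the members' leaf CHG levels, the CHG contrast was -2.74 points with longer genic TEs and -20.1 with short intergenic TEs, and the contrast near and far from a longer genic TE was 0.414. By construction, a minimum of 20% gave -16.6 points in CHG, 33.8 in CHH and 99.8% of members higher in CHH, and a minimum difference of 20 points left 228 members higher and 318 lower in CG, 325 higher in CHG, and 3415 higher and 3 lower in CHH. Without equal values the share higher in EC was 55.2% in CG, 37.7% in CHG and 95.6% in CHH. Members under 100 bp gave 28.3% in CHG and 77.2% in CHH, members listed in all 3 contexts 33.0% in CHG and 90.6% in CHH, and those without an overlap 84.0% in CHH. Against genic TEs of 200 to under 500 bp the CHH contrast was -3.85 points. Members within 2 kb of an intergenic TE contrasted with short intergenic TEs by -5.44 points in CHG and -13.6 in CHH. The CHG contrast near and far from an intergenic TE was 26.3 points at 60% or more in leaf and 3.41 by medians, and that near and far from a longer genic TE was -1.86 and -3.33. No paired analysis was possible because each tissue had 1 library. Depth, read counts and variation between plants or cultures are unknown, so single TEs carry an error that cannot be given.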

Other observations

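The extremes of mean difference over exact lengths are given as values chosen after they had been seen, since the ends of a ranking over many small groups lie far out in any case. Short genic TEs of 183 bp had the next highest mean CG difference among the 122 lengths ranked, at 7.16 points over 38 TEs, of which 5 had at least 30 points more in EC. In intergenic TEs the 3 lengths with the highest mean CG difference among 160 ranked were 183 bp (18.4 points over 135 TEs), 181 bp (15.9 points over 129) and 172 bp (13.2 points over 179). At the other end, genic TEs of 76 bp had a mean of -7.97 points over 21 TEs. In CHG the genic length with the most negative mean was 166 bp, at -19.6 points over 42 TEs, and in CHH the length with the highest mean was 191 bp, at 23.4 points over 81 TEs. The medians were smaller in size. In CG they were 1.755 points for genic TEs of 183 bp and -1.67 for those of 76 bp. For intergenic TEs of 183, 181 and 172 bp they were 5.93, 9.27 and 8.40 points. They were -11.4 points in CHG at 166 bp and 17.7 in CHH at 191 bp.

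The remaining TEs named by size of difference did not all follow the patterns above. The CG difference of 75.7 points at chr3:6034786-6034897 (plus strand, 111 bp), with 78.1% in EC and 2.44% in leaf, came with a CHG level of 4.81% in EC and 8.45% in leaf, so CG methylation stood nearly alone there in EC. A CHG difference of 70.8 points at chr16:19054239-19054422 (minus strand, 183 bp), with 82.2% in EC and 11.4% in leaf, came with 95.8% CG methylation in EC and 34.8% in leaf. At chr16:17833487-17833635 (plus strand, 148 bp), 48382 bp from a longer genic TE, all 3 contexts were lower in EC, with CG at 61.1% in EC and 91.9% in leaf, CHG at 21.3% in EC and 60.5% in leaf and CHH at 27.3% in EC and 35.6% in leaf.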
